A study of Homo sapiens with 12 samples.

Results

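The arrays compared here measured mRNA in 3 established colorectal cancer cell lines that received the microRNAs miR-200c and miR-141 without the other miR-200 cluster, beside the control array of each line. They were chosen by their titles and number 7 of the 12 arrays of the series. Cells labelled miR200c141 gave 4 arrays, 1 each of MDST8 and NCI-H716 and 2 of HUTU-80 whose titles end in 1:3 and 1:5, and control cells gave 1 array for each line. A further 3 arrays carried miR200ba429, the cluster of miR-200a, miR-200b and miR-429, and are used for a side-by-side reading only. All 3 lines were described as having methylated miR-200 loci. Cells were transduced with lentivirus, sorted for green fluorescence after 48 hours and harvested for RNA on day 7. The labels do not say what the control cells received, what the ratios in the HUTU-80 titles stand for, or whether arrays came from separate cultures, so p-values measure only the spread between these samples. The HUTU-80 pair was averaged, and each line gave 1 difference, miR200c141 minus its own control, so that 3 samples stood against 3.

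MicroRNAs guide Argonaute proteins to messenger RNAs that pair with bases 2 to 8 of the microRNA, the seed, and so lower the messages they bind. The miR-200 family is expressed in epithelia, where it acts against the transcription factors ZEB1 and ZEB2, repressors of E-cadherin and other epithelial genes, which in turn repress the miR-200 loci. Low miR-200 and high ZEB1 mark the mesenchymal-like state of carcinoma cells. The mature sequences below show which family members share a seed, and were taken from RefSeq on GRCh38.p14, with the seed in capitals. The first pair is the cluster added here, on chromosome 12, and the others come from the cluster on chromosome 1.
miR-200c-3p: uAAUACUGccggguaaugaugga
miR-141-3p: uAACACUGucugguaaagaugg
miR-200b-3p: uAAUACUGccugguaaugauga
miR-429: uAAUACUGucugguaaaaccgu
miR-200a-3p: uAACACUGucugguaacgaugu
Each cluster holds both seeds. Compared with miR-200c-3p, miR-141-3p and miR-200a-3p carry the substitution U4C, counted from the 5′ end, and miR-200b-3p and miR-429 have the same seed as miR-200c-3p. The microRNAs themselves were not read on these arrays.

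The values are log2 intensities, on which 1 unit is a 2-fold difference, and 1 probe set, the brightest, stands for each of 19774 genes. The highest value of any nonspecific control probe set, 5.43, was taken as the background level, and a level under it is only a bound. The HUTU-80 pair correlated at r = 0.995, with 72 genes differing by 1 log2 or more, against 140 genes at least 1 log2 higher and 73 lower with miR200c141 than in the HUTU-80 control. Differences between 3′ and 5′ probe sets, a sign of RNA integrity, ran from 1.5 to 2.4 for ACTB with miR200c141 and from 1.54 to 2.33 in controls. None of the 8 measured intestinal epithelial markers was above background on any HUTU-80 or MDST8 array, against 6 of 8 on both NCI-H716 arrays, which also carried 3 of 4 neuroendocrine markers. HUTU-80 is catalogued elsewhere as a duodenal line. The 4 immune and 3 endothelial markers were below background on all 7 arrays. Of 5 genes typical of fibroblasts, 2 to 4 were above background on each array with miR200c141 and on each control array. LUM, a matrix proteoglycan, was the 1 above it on all 7, at 9.17 to 11.86 with miR200c141 and 9.30 to 12.03 in controls. COL1A1 differed by -1.32 in HUTU-80 and by 3.53 in NCI-H716, where its control of 3.19 was below background. DCN differed by -2.48 in MDST8, from 5.48 in control, barely above background, to 3.00 with miR200c141, below it. Differences that rest on a level below background are only bounds. The part of these differences in the results below was not tested.

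ZEB1 fell, and VAMP8, PRSS23 and GCH1 rose, with the same sign in all 3 lines. These 4 genes, 0.0202% of the 19774 tested, passed an adjusted p of 0.05 in limma's moderated test paired by line, 0.0152% as rises and 0.00506% as falls, while 1602 genes (8.1%) had an unadjusted p under 0.05. VAMP8 encodes a vesicle SNARE that drives fusion of secretory granules and endosomes. It read 7.45 and 7.43 in HUTU-80 cells, 8.29 in MDST8 and 9.70 in NCI-H716 with miR200c141, against 3.70, 2.95 and 5.01 in the controls of the same lines. Every control array was below background and every miR200c141 array above it, so the difference is at least 8.28-fold, and the fitted mean was 4.59 ± 0.29 log2 (SE, n = 3 lines, limma adjusted p = 0.0043).

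ZEB1 read 7.93 and 7.99 in HUTU-80 cells, 7.94 in MDST8 and 8.43 in NCI-H716 with miR200c141, against 9.87, 9.39 and 10.15 in controls. The groups did not overlap, and the level with miR200c141 was 0.309 of that in controls, a log2 difference of -1.69 ± 0.11 (SE, n = 3 lines, limma adjusted p = 0.0043). In these bulk samples, less ZEB1 in every cell and fewer cells with ZEB1 cannot be told apart. A second ZEB1 probe set above background gave -1.54 in HUTU-80 cells, -1.08 in MDST8 and -1.27 in NCI-H716. ZEB2, the related repressor, differed by -1.14, -1.62 and -0.15 in the same order, and was above background only in MDST8, at 6.35 with miR200c141 against 7.97 in control.

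PRSS23, a secreted serine protease, read 5.83 and 5.04 in HUTU-80 cells, 10.70 in MDST8 and 6.52 in NCI-H716 with miR200c141, against 3.79, 9.24 and 5.03 in controls. The mean difference was 1.53 ± 0.15 log2 (SE, n = 3 lines, limma adjusted p = 0.0448). Both HUTU-80 and NCI-H716 controls were below background, and 1 of the 2 HUTU-80 arrays with miR200c141 was too. Held at background, the differences are at least 0.20 in HUTU-80 and 1.09 in NCI-H716, beside 1.46 measured in MDST8, and the mean is at least 0.92. A second PRSS23 probe set was above background in MDST8 alone, where it differed by 1.90. GCH1 catalyses the first and rate-limiting step of tetrahydrobiopterin synthesis. It read 10.35 and 10.37 in HUTU-80 cells, 8.83 in MDST8 and 10.25 in NCI-H716 with miR200c141, against 9.56, 7.96 and 9.23 in controls. Here all 7 arrays were well above background, and the mean difference of 0.89 ± 0.09 log2 (SE, n = 3 lines, limma adjusted p = 0.0448) was the smallest of the 4. With only 3 pairs, an exact sign-flip test of any single gene cannot go below p = 0.25. No gene passed when all 4 groups of the series entered 1 limma fit, which gave 1302 genes at an unadjusted p under 0.05 and adjusted p of 0.117 for ZEB1 and GCH1 and of 0.242 for VAMP8 and PRSS23. Without HUTU-80 only VAMP8 was called, without NCI-H716 PRSS23 and GCH1 were not, and without MDST8 88 genes were called, these 4 among them.

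**Figure D1:**
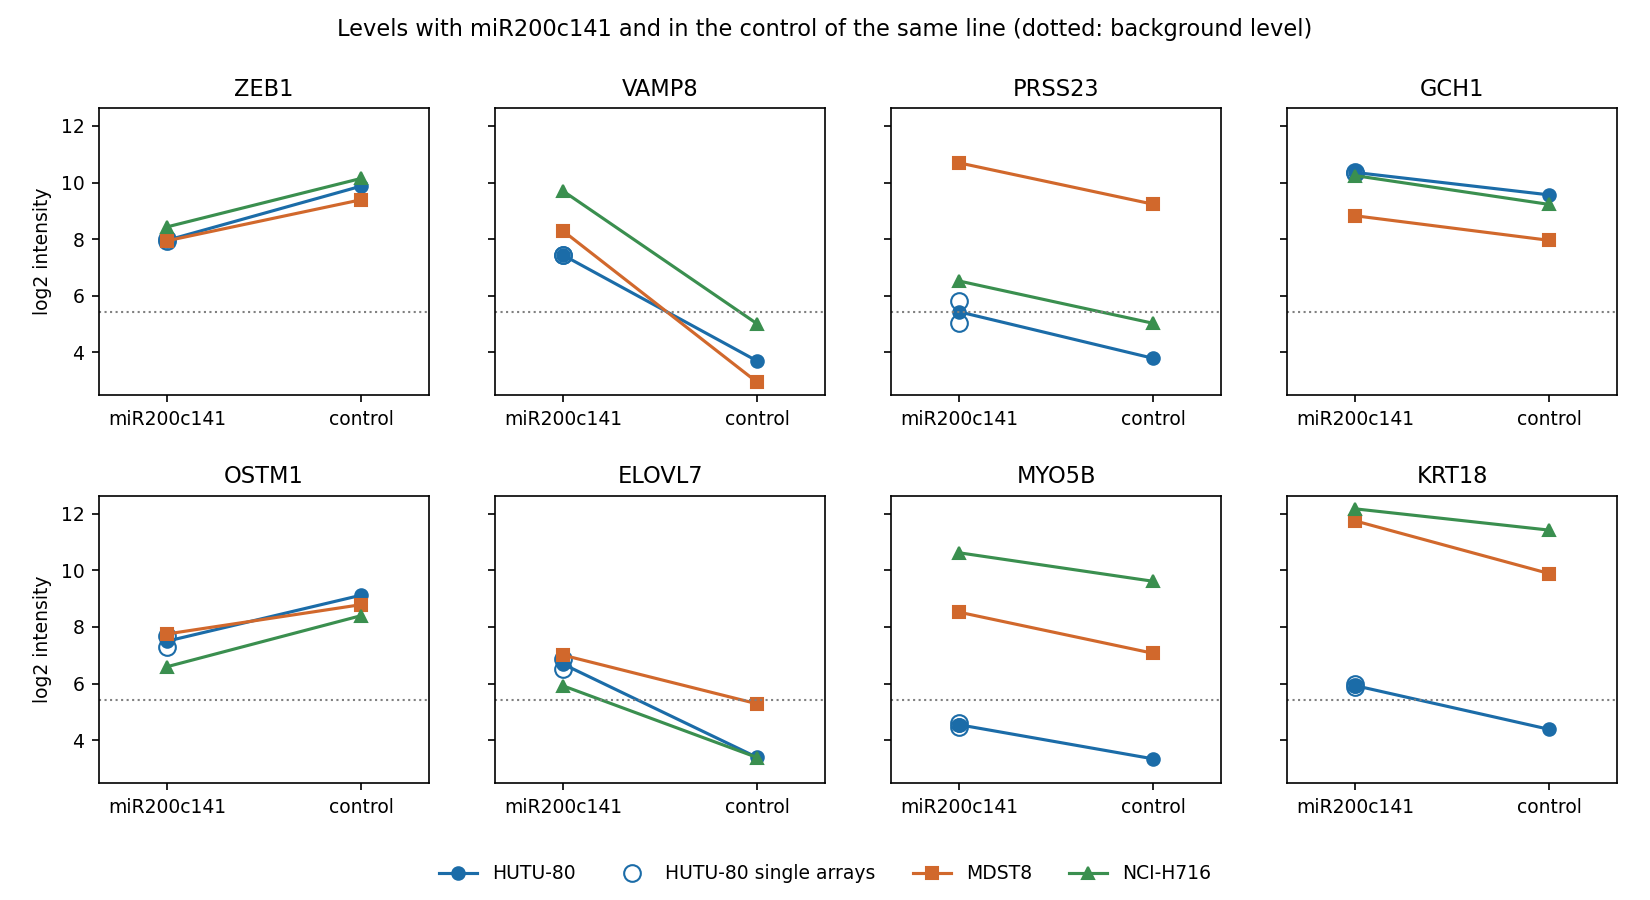
Log2 intensity of 8 genes with miR200c141 (left) and in the control of the same line (right). Filled symbols are 1 value per line, open circles the single HUTU-80 arrays, and the dotted line is the background level of 5.43. The lines of ZEB1 and OSTM1 climb towards the control, and those of the other genes descend, in all 3 cell lines.

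Next in order of p stood OSTM1, ELOVL7 and MYO5B, which did not pass the test. OSTM1 is the partner subunit of the lysosomal chloride-proton exchanger ClC-7. It read 7.30 and 7.69 in HUTU-80 cells, 7.75 in MDST8 and 6.59 in NCI-H716 with miR200c141, against 9.12, 8.79 and 8.40 in controls, a mean difference of -1.49 ± 0.16 (SE, n = 3 lines, limma adjusted p = 0.0667). The groups did not overlap, and the other probe sets of OSTM1 above background had mean differences of -1.33 and -0.97. ELOVL7, an elongase of long-chain fatty acids, read 6.85 and 6.52 in HUTU-80 cells, 7.00 in MDST8 and 5.92 in NCI-H716 with miR200c141, against 3.39, 5.29 and 3.39 in controls. All controls were below background, which puts the difference at 2.16-fold or more (mean log2 difference 2.52 ± 0.30, limma adjusted p = 0.102). MYO5B, the motor that carries recycling endosomes to the apical surface, read 4.62 and 4.47 in HUTU-80 cells, 8.52 in MDST8 and 10.62 in NCI-H716 with miR200c141, against 3.34, 7.07 and 9.61 in controls (mean log2 difference 1.22 ± 0.15, limma adjusted p = 0.102). Its HUTU-80 levels were all below background.

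A wider set was described by the same sign and at least 0.3 log2 in each line, with no test. With miR200c141, 205 genes (1.04% of all) were higher and 184 (0.931%) lower by this rule, of which 90 and 92 were among the 8070 genes above background in every line in the higher of both groups. Where a level lies below background the difference is only a bound, so no order is read among such genes. The rule did not ask for a level above background, so list members that met it can be below background in some lines. The shares of 1.04% and 0.931% are those to set beside each list count. The 12 largest fitted differences on the higher side held several genes of epithelial architecture. KRT18, a keratin of simple epithelia, read 6.0 and 5.86 in HUTU-80 cells, 11.75 in MDST8 and 12.17 in NCI-H716 with miR200c141, against 4.38, 9.89 and 11.42 in controls. PATJ, a scaffold of the Crumbs polarity complex at tight junctions, read 7.43 and 7.63, 6.37 and 6.92 in the same lines, against 6.46, 3.49 and 5.04 in controls. Each array with miR200c141 was above the control of its line for both genes, and the mean differences were 1.39 ± 0.19 for KRT18 and 1.94 ± 0.32 for PATJ (limma adjusted p = 0.152 and 0.199). Controls below background, of KRT18 in HUTU-80 and of PATJ in MDST8 and NCI-H716, put these means at 1.04 and 1.17 or more. SFN, the 14-3-3 sigma protein of epithelia, had differences of 1.03 in HUTU-80 cells, 1.86 in MDST8 and 0.71 in NCI-H716, and of 2.03, 3.69 and 2.65 in a second probe set. The MDST8 and NCI-H716 controls of that second probe set were below background. For BAIAP2L1, an adaptor that couples curved membrane to actin, they were 0.45, 1.01 and 3.11.

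The others of the 12 had mixed roles. CDS1, which makes the CDP-diacylglycerol used for phosphatidylinositol, read 7.45 and 7.37 in HUTU-80 cells, 8.50 in MDST8 and 7.87 in NCI-H716 with miR200c141, against 5.00, 6.94 and 3.11 in controls (mean log2 difference 2.91 ± 0.51, limma adjusted p = 0.236). The HUTU-80 and NCI-H716 controls were below background, so the mean is at least 2.00. CDS2, the second enzyme of the same step, differed by 0.01, -0.20 and -0.68. BICDL1, an adaptor that links vesicles to dynein, differed by 1.14 in HUTU-80 cells, 3.06 in MDST8 and 0.98 in NCI-H716, with the MDST8 control below background. TMC4, a transmembrane channel-like protein, differed by 2.14, 1.23 and 3.59 from controls that were all below background. SEL1L3 had differences of 2.71, 0.94 and 2.32, and SPAG1, an assembly factor of ciliary dynein arms, of 1.34, 1.59 and 0.57.

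On the lower side, beside ZEB1 and OSTM1, stood RECK, a membrane-anchored inhibitor of matrix metalloproteinases and a published miR-200 target. It read 3.94 and 4.48 in HUTU-80 cells, 4.84 in MDST8 and 5.32 in NCI-H716 with miR200c141, against 5.88, 5.59 and 8.13 in controls. All arrays with miR200c141 were below background, so the mean difference of -1.75 ± 0.35 (limma adjusted p = 0.315) reaches at least -1.11 when levels are held at background. The 1 other RECK probe set with a level above background, in NCI-H716, differed by -0.36 there. PPM1F, a phosphatase of PAK and CaM kinases, differed by -1.0 in HUTU-80 cells, -0.91 in MDST8 and -1.65 in NCI-H716, and a second probe set above background in all lines averaged -0.98. In NCI-H716 both probe sets fell below background with miR200c141, so their differences there are bounds. DDIT4, also called REDD1, restrains mTORC1 under stress. It read 7.78 and 7.83 in HUTU-80 cells, 8.78 in MDST8 and 9.18 in NCI-H716 with miR200c141, against 9.46, 9.35 and 10.24 in controls (mean log2 difference -1.10 ± 0.18, limma adjusted p = 0.199). B4GAT1, a glucuronyltransferase that builds the laminin-binding sugar of dystroglycan, differed by -0.80, -0.86 and -1.44. Signalling and channel genes were PRKG1, the cGMP-dependent kinase, at -0.85, -1.23 and -0.85, and GJA3, a connexin, at -0.94, -1.22 and -0.57. Their MDST8 levels with miR200c141, 4.75 for PRKG1 and 4.35 for GJA3, were below background, so the MDST8 differences are bounds. TTLL1, a tubulin polyglutamylase, differed by -0.62, -0.95 and -1.08, the last a bound because its NCI-H716 level with miR200c141, 4.64, was below background. ZCCHC24, TMEM170B and C14orf132 completed the 12, with mean differences of -1.50, -0.98 and -0.88. Each of them had a level with miR200c141 below background in some line, so these means rest in part on bounds.

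**Figure D2:**
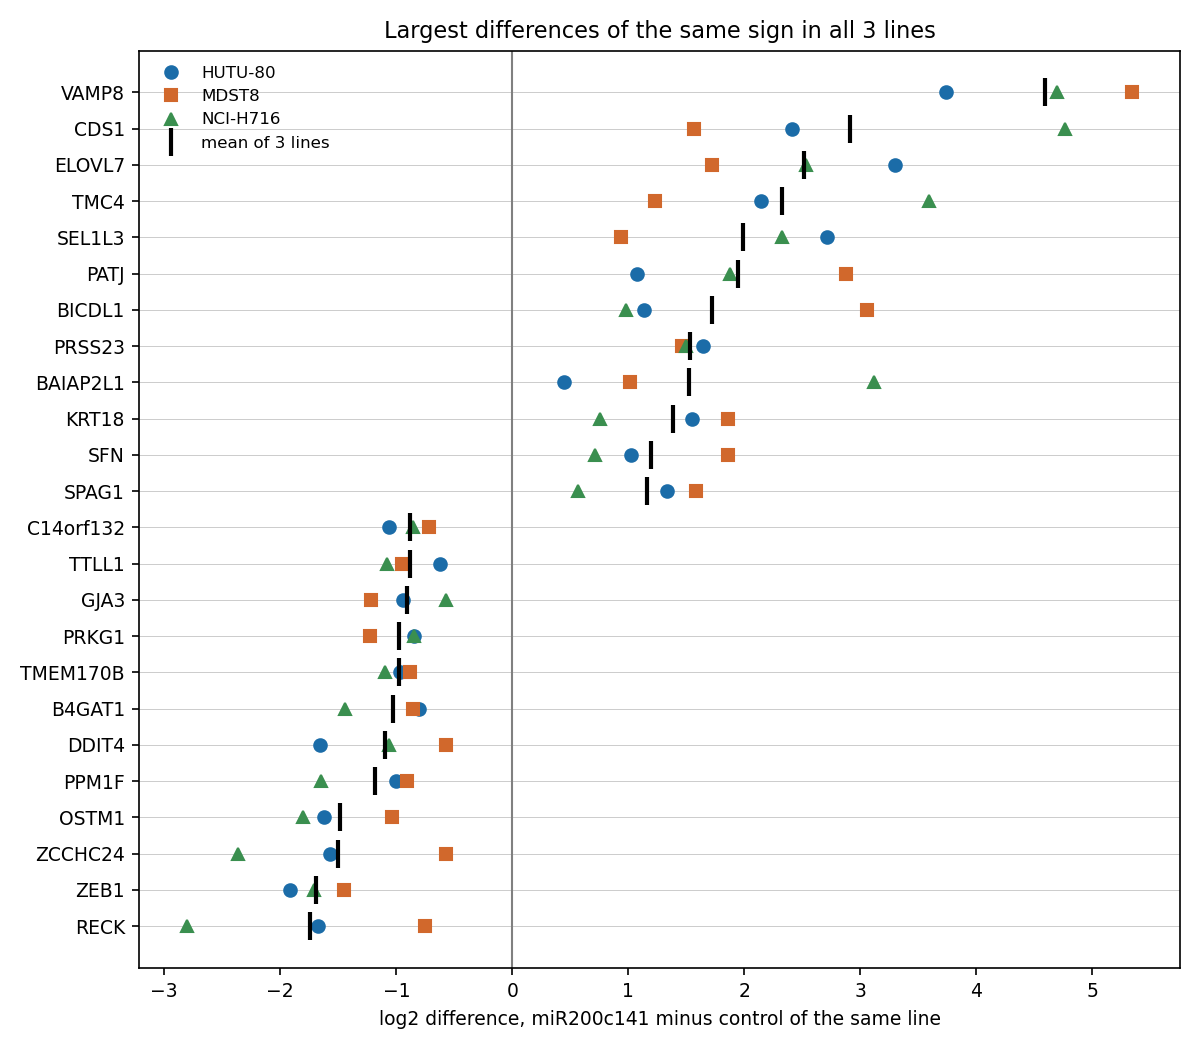
Log2 difference, miR200c141 minus control of the same line, for the 12 genes of largest positive and the 12 of largest negative mean among genes with the same sign and at least 0.3 in every line. Symbols are the 3 lines and black ticks their mean, from 4.59 for VAMP8 to -1.75 for RECK. Differences from levels below background, such as those of PRSS23 in HUTU-80 and NCI-H716, are drawn as fitted and are bounds. The ZEB1 values, all above background, lie between -1.91 and -1.45.

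ZEB proteins bind the E-box CAGGTG, whose reverse complement is CACCTG, so promoter windows of 250 bases before to 50 after the RefSeq start (GRCh38.p14) were searched for these letters on both strands. Of the 12 largest positive genes 9 had a window, and 8 of these (88.9%) held the motif, namely BAIAP2L1, CDS1, ELOVL7, PATJ, PRSS23, SEL1L3, SFN and TMC4. Of the 12 largest negative genes, 10 had a window and 4 held it. Over the wider sets it stood in 56 of 159 windows (35.2%) of genes higher in every line and in 28 of 139 (20.1%) of genes lower in every line, against 3019 of 15399 (19.6%) for all genes of the array with a window and 5625 of 27305 (20.6%) for all windows. These are shares of letters in a window and carry no test. The windows of PATJ and BAIAP2L1, with the motif in capitals, are shown because they held it 3 times each, that of ELOVL7 because it held it at 2 places, and that of VAMP8, the gene of largest mean difference, because it held none.
PATJ, chr1:61742230-61742529, plus strand: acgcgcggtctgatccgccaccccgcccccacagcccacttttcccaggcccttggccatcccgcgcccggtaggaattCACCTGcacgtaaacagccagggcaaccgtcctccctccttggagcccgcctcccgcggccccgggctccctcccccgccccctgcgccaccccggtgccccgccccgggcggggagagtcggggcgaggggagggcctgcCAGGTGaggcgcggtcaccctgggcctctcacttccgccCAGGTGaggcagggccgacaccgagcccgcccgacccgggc
BAIAP2L1, chr7:98401041-98401340, minus strand: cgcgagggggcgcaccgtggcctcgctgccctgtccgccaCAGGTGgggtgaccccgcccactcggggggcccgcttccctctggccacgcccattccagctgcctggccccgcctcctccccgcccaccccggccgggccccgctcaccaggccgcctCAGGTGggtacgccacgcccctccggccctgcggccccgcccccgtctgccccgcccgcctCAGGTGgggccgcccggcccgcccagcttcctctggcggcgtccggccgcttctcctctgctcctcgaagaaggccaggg
ELOVL7, chr5:60844220-60844519, minus strand: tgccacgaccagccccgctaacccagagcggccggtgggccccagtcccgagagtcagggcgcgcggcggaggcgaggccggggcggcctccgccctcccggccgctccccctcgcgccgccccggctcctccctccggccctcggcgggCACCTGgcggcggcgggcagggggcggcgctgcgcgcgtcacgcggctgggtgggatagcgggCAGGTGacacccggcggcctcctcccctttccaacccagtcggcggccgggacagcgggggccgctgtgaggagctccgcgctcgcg
VAMP8, chr2:85577336-85577635, plus strand: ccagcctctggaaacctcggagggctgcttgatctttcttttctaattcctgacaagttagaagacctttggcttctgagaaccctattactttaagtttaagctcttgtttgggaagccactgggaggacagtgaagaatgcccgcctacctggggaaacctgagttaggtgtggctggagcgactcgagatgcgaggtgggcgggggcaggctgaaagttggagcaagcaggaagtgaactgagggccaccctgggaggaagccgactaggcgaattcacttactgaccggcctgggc
The most downstream copies in PATJ and BAIAP2L1 lie 9 bases past and 30 bases before the start site, and the nearest in ELOVL7 lies 37 bases before it. No match in the VAMP8 window says only that these letters are not in it.

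**Figure D3:**
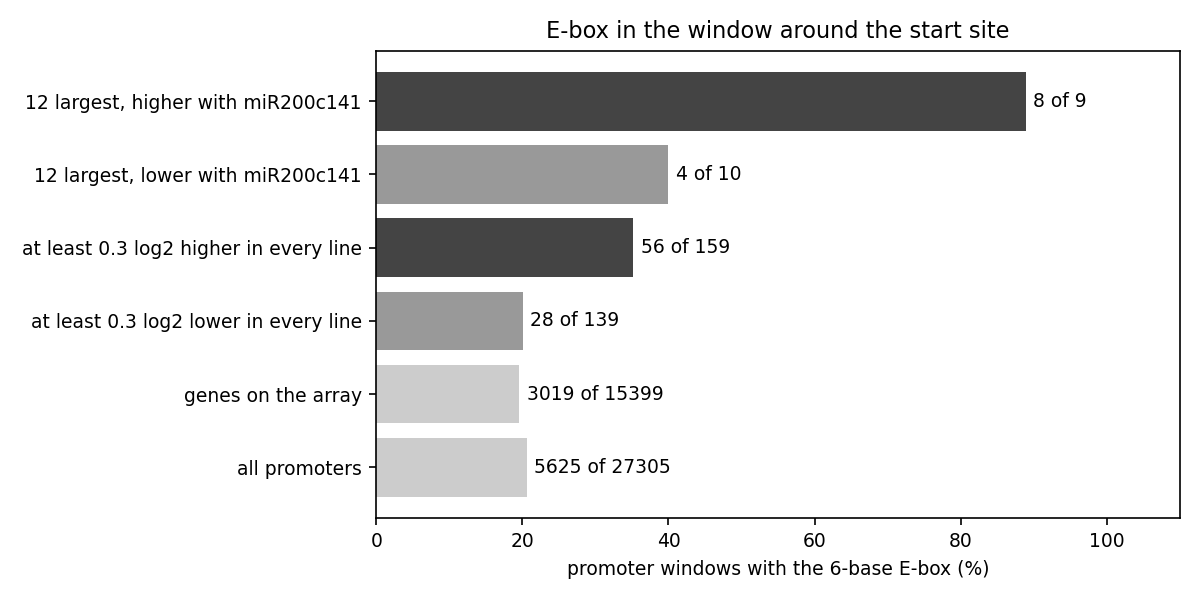
Percent of promoter windows that hold the 6-base E-box on either strand, by gene set, with the counts behind each bar. The bar of the 12 largest genes on the higher side stands at 88.9% of 9 windows, and that of all array genes at 19.6% of 15399.

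Among 43 measured genes reported elsewhere as miR-200 family targets, 1, ZEB1, fell in the test and none rose. By the rule 9 were at least 0.3 log2 lower in every line and none was higher, against 0.931% and 1.04% of all genes. The 9 were ZEB1, RECK, ZCCHC24, PPM1F, TET1, WIPF1, QKI, LHFPL6 and FHOD1. WIPF1 and QKI were below background in NCI-H716, and LHFPL6 was not above it in every line. The median difference of the list was -0.35 log2 against 0.003 over all genes, and 31 members had a negative mean. TET1, which oxidises methylcytosine, read 7.64 and 7.61 in HUTU-80 cells, 4.86 in MDST8 and 5.79 in NCI-H716 with miR200c141, against 8.13, 5.68 and 7.09 in controls, whereas TET3 differed by 0.13, 0.32 and 0.15. WASF3, an activator of the Arp2/3 actin nucleator, was unequal across lines, at -0.01 in HUTU-80 cells, -0.73 in MDST8 and -2.38 in NCI-H716. The NCI-H716 level of WASF3 with miR200c141 was below background, so that difference is a bound. The actin-severing factor CFL2 differed by -0.70, -0.14 and -1.55, and SEC23A, an inner-coat subunit of COPII vesicles, by -0.66, -0.26 and -1.09. Other named targets went without a shared sign: the Notch ligand JAG1 differed by 0.70, -0.09 and 0.14, and the polycomb subunits SUZ12 and BMI1 stayed within 0.23 of their controls in every line. A second JAG1 probe set above background in every line gave 0.64, -0.21 and 0.19. Dimmer JAG1 probe sets, above it in MDST8 and NCI-H716 only, gave -0.59 and -0.53, and -0.17 and -0.98. Of 13 genes reported for the miR-141 and miR-200a seed, 2 were lower in every line, ZEB1 and PPARA, and the median was -0.24.

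Genes of apical vesicle traffic, a list that was put together with VAMP8 already known, had the highest median of the 38 lists, 0.63 log2. The lists were chosen with earlier results of these data known, so this rank and the counts below describe the list and are no independent support. Of 26 measured members 1, VAMP8, rose in the test and none fell, and 11 were at least 0.3 log2 higher in every line, against 1.04% of all genes. Beside VAMP8, MYO5B and TMC4 these were ARL14, RAB11FIP1, RAB11FIP4, RAB17, AP1S3, SYTL1, EPS8L1 and LLGL2. Only 8 of the 26 were above background in every line. Both levels were below it for MYO5B in HUTU-80, ARL14 in HUTU-80 and MDST8, LLGL2 in MDST8 and RAB11FIP4 in NCI-H716, so their rises there cannot be read. RAB17 and SYTL1 were also not above background in every line, so their rises cannot be read in all lines. RAB11FIP4, an effector of the recycling GTPase RAB11, read 7.06 and 6.88 in HUTU-80 cells, 7.00 in MDST8 and 5.16 in NCI-H716 with miR200c141, against 5.70, 5.56 and 3.98 in controls (mean log2 difference 1.30 ± 0.19, limma adjusted p = 0.173). RAB11A itself differed by 0.12, 0.11 and 0.18, and RAB25 by -0.03, 0.21 and -0.19. EXPH5, an effector of RAB27, differed by 0.28 in HUTU-80 cells, 3.58 in MDST8 and 1.80 in NCI-H716. No member of the 14 COPII coat genes met the rule in either direction, which is near the share over all genes (1.04% higher and 0.931% lower), and their median was 0.06.

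Junction genes were spread unevenly over the lines and none passed the test. Of 21 tight junction and polarity genes, 3 met the rule as higher, PATJ, LLGL2 and CXADR, against 1.04% of all genes, and the median was 0.26. LLGL2, a basolateral polarity protein, differed by 1.72 in HUTU-80 cells, 1.12 in MDST8 and 0.84 in NCI-H716, with both MDST8 levels below background. CXADR, a tight junction adhesion receptor, differed by 0.89, 1.72 and 0.47. MARVELD3, a tetraspan tight junction protein, differed by 4.14 and 3.15 in HUTU-80 and NCI-H716 and by -0.45, below background, in MDST8. Its HUTU-80 and NCI-H716 controls, 3.05 and 3.18, were below background too, so those differences are bounds. Among 15 desmosomal genes PKP2 met the rule as higher, at 0.51, 1.53 and 2.84, with both HUTU-80 levels below background. The MDST8 and NCI-H716 controls of PKP2, 5.14 and 3.31, were also below it. DSP, the plaque protein that anchors keratin, differed by 0.11, 2.36 and 0.49, with a MDST8 control of 4.93, below background. Of 16 keratins and keratin partners, KRT8, KRT15 and KRT18 met the rule as higher, though KRT15 was not above background in every line. KRT8, the partner of KRT18, differed by 2.30, 0.73 and 0.85, with both MDST8 levels below background. Of 14 epithelial transcription factors OVOL2, KLF4 and TFCP2L1 met the rule, though TFCP2L1 was not above background in every line. OVOL2, a repressor that opposes ZEB1, read 6.88 and 6.87 in HUTU-80 cells, 3.80 in MDST8 and 6.59 in NCI-H716 with miR200c141, against 3.84, 3.43 and 4.10 in controls, so that MDST8 stayed below background.

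Matrix genes were lower in part. Of 29 genes of extracellular matrix and crosslinking, COL6A1 and FSTL1 were lower in every line and none was higher, with a median of -0.07. COL6A1, a chain of collagen VI, differed by -0.78, -0.85 and -0.80, a mean of -0.81 ± 0.12 (limma adjusted p = 0.178). In HUTU-80 it read 5.04 and 4.69 with miR200c141, below background, against 5.64 in control, so the difference there is only a bound. A second COL6A1 probe set was above background in MDST8 alone, where it differed by -1.21. FSTL1, a secreted glycoprotein, differed by -0.83, -0.36 and -1.37, but was not above background in every line, so not all of these can be read. The list of 28 matrix proteases and inhibitors split, with ADAMTS1, HTRA1, MMP16 and RECK lower and SERPINE2 and SPINT2 higher by the rule. Only 3 of the 28 were above background in every line. ADAMTS1 was below it in NCI-H716, and HTRA1, MMP16 and SERPINE2 were not above it in every line. SPINT2, an inhibitor of membrane serine proteases such as matriptase, differed by 0.65 in HUTU-80 and 4.50 in NCI-H716, with MDST8 below background. VIM, the mesenchymal intermediate filament, differed by -0.28, -0.05 and -0.77 and remained above 11 on every array.

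Of 15 mTOR and energy stress brakes 2 met the rule as lower, DDIT4 and CHAC1, and none was higher. CHAC1 was above background in HUTU-80 alone, so its differences in the other lines cannot be read. In this list 12 had a negative mean, and the median was -0.20, with -0.53 in HUTU-80 cells, -0.18 in MDST8 and -0.02 in NCI-H716. None of 26 cell cycle genes and none of 15 polycomb and chromatin regulators met the rule in either direction. That is near the share over all genes (1.04% higher and 0.931% lower). Of the cell cycle genes 20 had a negative mean, and their median was -0.10, while that of the polycomb list was 0.004. Of the other genes of tetrahydrobiopterin synthesis none passed the test. PTS, the enzyme after GCH1, differed by 0.42, 0.06 and 0.40, SPR, the last, by 0.21, -0.12 and 0.34, and GCHFR, the feedback regulator of GCH1, by -0.09, 0.86 and -0.20. STK4, the Hippo kinase, differed by -0.55, -0.46 and -0.62 (mean -0.54 ± 0.08, limma adjusted p = 0.192). Ribosomal proteins had a median of -0.03 over 23 genes, and endothelial markers, none above background, of -0.07.

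**Figure D4:**
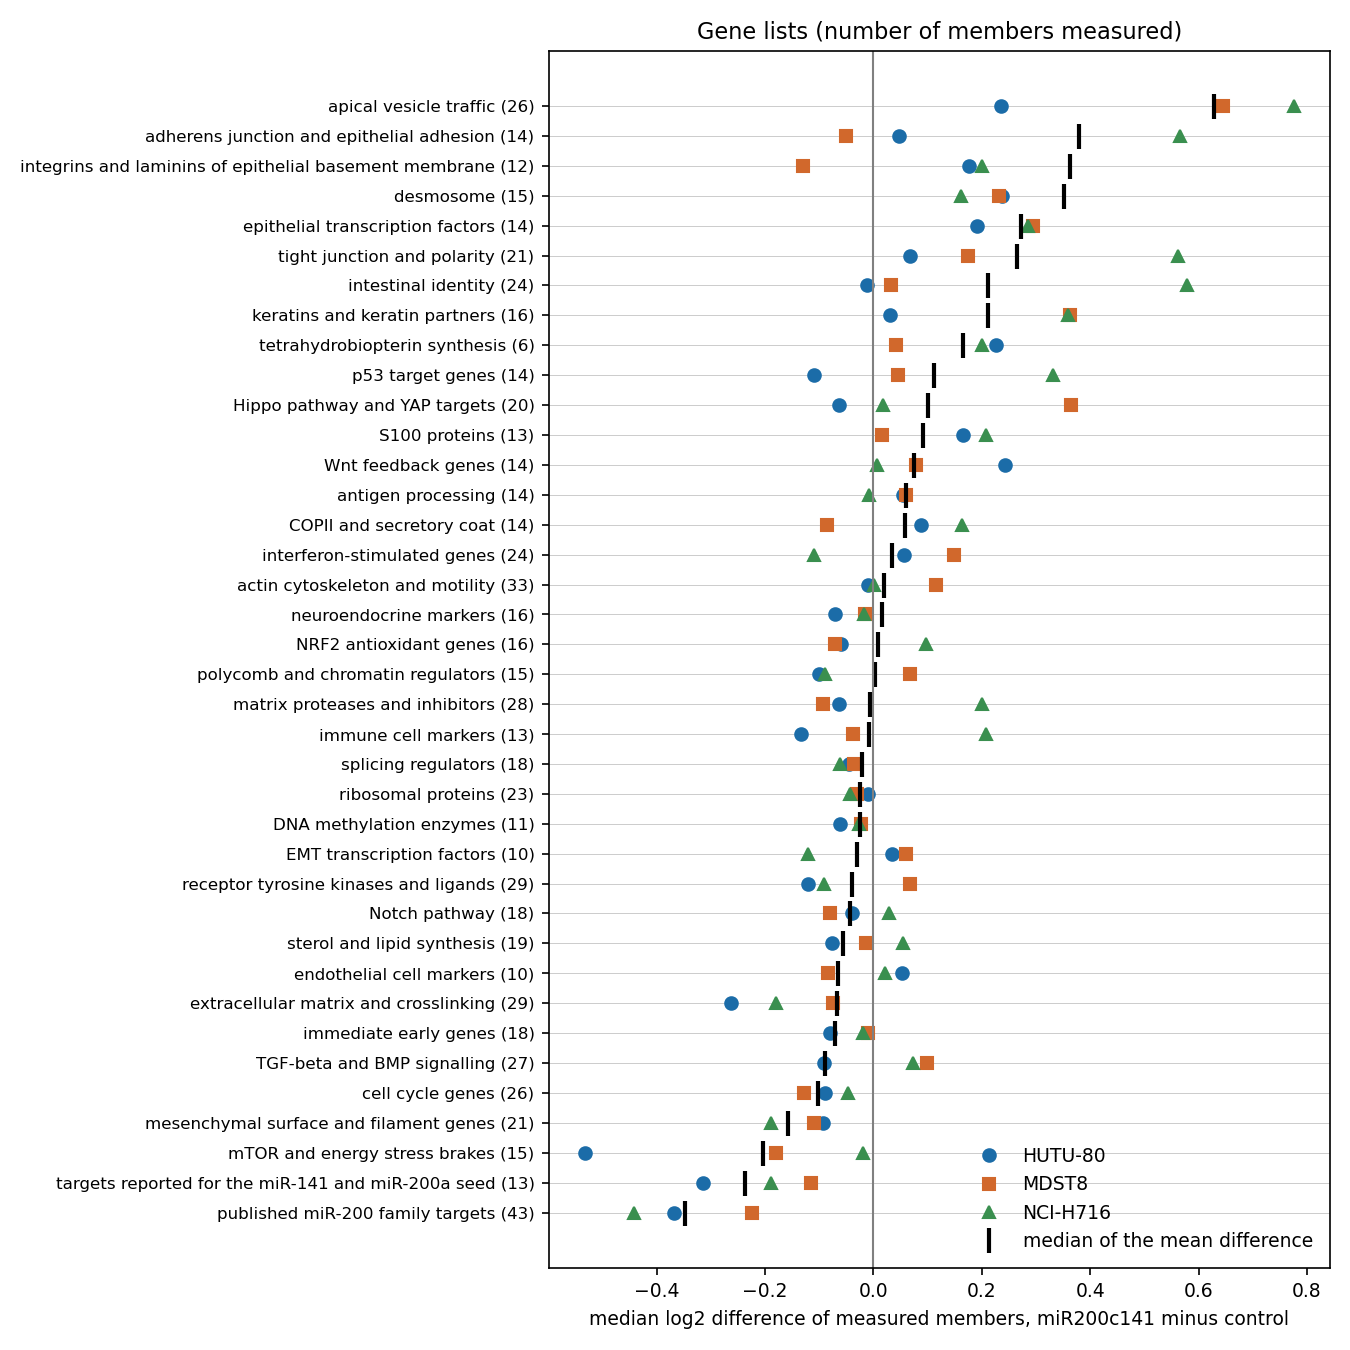
Median log2 difference, miR200c141 minus control, of each gene list in HUTU-80, MDST8 and NCI-H716, with a black tick for the median of the members' mean difference. Apical vesicle traffic stands highest at 0.63 and published miR-200 family targets lowest at -0.35, while the lists in the middle lie close to 0.

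Most large differences belonged to 1 line. Of 1067 genes that differed by at least 1 log2 somewhere, 976 did so in 1 line, 78 in 2 lines and 13 in all 3. In HUTU-80 140 genes (0.708%) were at least 1 log2 higher and 73 (0.369%) lower, in MDST8 222 (1.12%) and 210 (1.06%), and in NCI-H716 317 (1.6%) and 209 (1.06%). Since MDST8 and NCI-H716 have 1 array a group, these counts have no replicate check. The fit that asked where the lines differ gave false calls on simulated data, so no difference between lines rests on a test here.

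In HUTU-80 the largest difference was that of EPCAM, the epithelial cell adhesion molecule, at least 5.07, with levels of 10.36 and 10.63 with miR200c141 against 4.42 in control. NCI-H716 had EPCAM at 12.18 with miR200c141 against 9.29 in control, and MDST8 had it below background on both arrays. CDH1, which encodes E-cadherin, read 6.01 and 5.84 in HUTU-80 cells, 3.03 in MDST8 and 8.52 in NCI-H716 with miR200c141, against 3.20, 3.14 and 4.01 in controls. Thus both adhesion genes stood above background with miR200c141 in HUTU-80 and NCI-H716 and below it in MDST8. BSPRY, a protein with B-box and SPRY domains, read 7.20 and 6.79 in HUTU-80 with miR200c141 against 3.22 in control. On the lower side in HUTU-80 stood CHAC1, which degrades glutathione in the stress response, at 6.17 and 6.06 with miR200c141 against 8.17 in control. EPYC, a small leucine-rich matrix proteoglycan, read 7.47 and 8.09 with miR200c141 against 9.68 in control, and ZNF423, a zinc-finger transcription factor, 5.13 and 4.81 against 6.76.

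In MDST8 ANKRD1, a target of the YAP coactivator, read 8.07 with miR200c141 against 3.04 in control. PRSS2, a trypsinogen, read 8.28 with miR200c141 against 3.48 in control, and SLC2A3, the glucose transporter GLUT3, 10.25 against 5.71. ANKRD1 and SLC2A3 were already high in HUTU-80 controls, at 8.72 and 11.64, and differed there by 0.65 and 0.21. The largest negative difference in MDST8 was that of IL1B, the cytokine, at 5.02 with miR200c141 against 8.91 in control. PRRX1, a mesenchymal homeobox factor, read 6.88 with miR200c141 against 9.94 in control, and CDH6, a type II cadherin, 6.25 against 9.47. MMP1, interstitial collagenase, read 9.09 in MDST8 with miR200c141 against 11.74 in control, and 3.36 and 4.30 against 6.02 in HUTU-80. SCG5, a chaperone of prohormone convertase, read 3.84 in MDST8 with miR200c141 against 6.53 in control, and 5.50 in NCI-H716 with miR200c141 against 6.28 in control. KRT18, DSP and PATJ differed by 1.86, 2.36 and 2.87 in MDST8, while EPCAM, CDH1 and OVOL2 stayed below background. The MDST8 controls of DSP and PATJ were below background, so their differences are bounds.

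In NCI-H716 CEACAM5, the carcinoembryonic antigen, was above background on both arrays, at 10.93 with miR200c141 against 5.68 in control. FXYD3, a regulator of the sodium pump, read 9.75 with miR200c141 against 3.54, below background, in control, and CAPN8, a gastrointestinal calpain, 7.92 against 3.27. ESRP1, which directs epithelial splicing, read 7.75 with miR200c141 against 3.13 in control, and was below background on every HUTU-80 and MDST8 array. The intestinal identity list of 24 genes had a median of 0.58 in NCI-H716, where 19 were above background, against -0.01 in HUTU-80 and 0.03 in MDST8, where none was. The brush-border protein VIL1 differed by 3.23 and the antioxidant enzyme GPX2 by 3.60 in NCI-H716. The 16 neuroendocrine genes had a median of -0.02 in NCI-H716, where CHGA read 9.75 with miR200c141 against 10.01 in control and INSM1 9.26 against 9.15. SCG5 differed by -0.78 there, and NKX2-2, below background on both arrays, by -0.90. On the lower side stood the matrix proteins MFAP4, at 4.92 with miR200c141 against 8.25 in control, and MGP, at 6.99 against 9.73. PTH2R, a peptide hormone receptor, read 3.95 with miR200c141 against 6.91 in control.

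**Figure D5:**
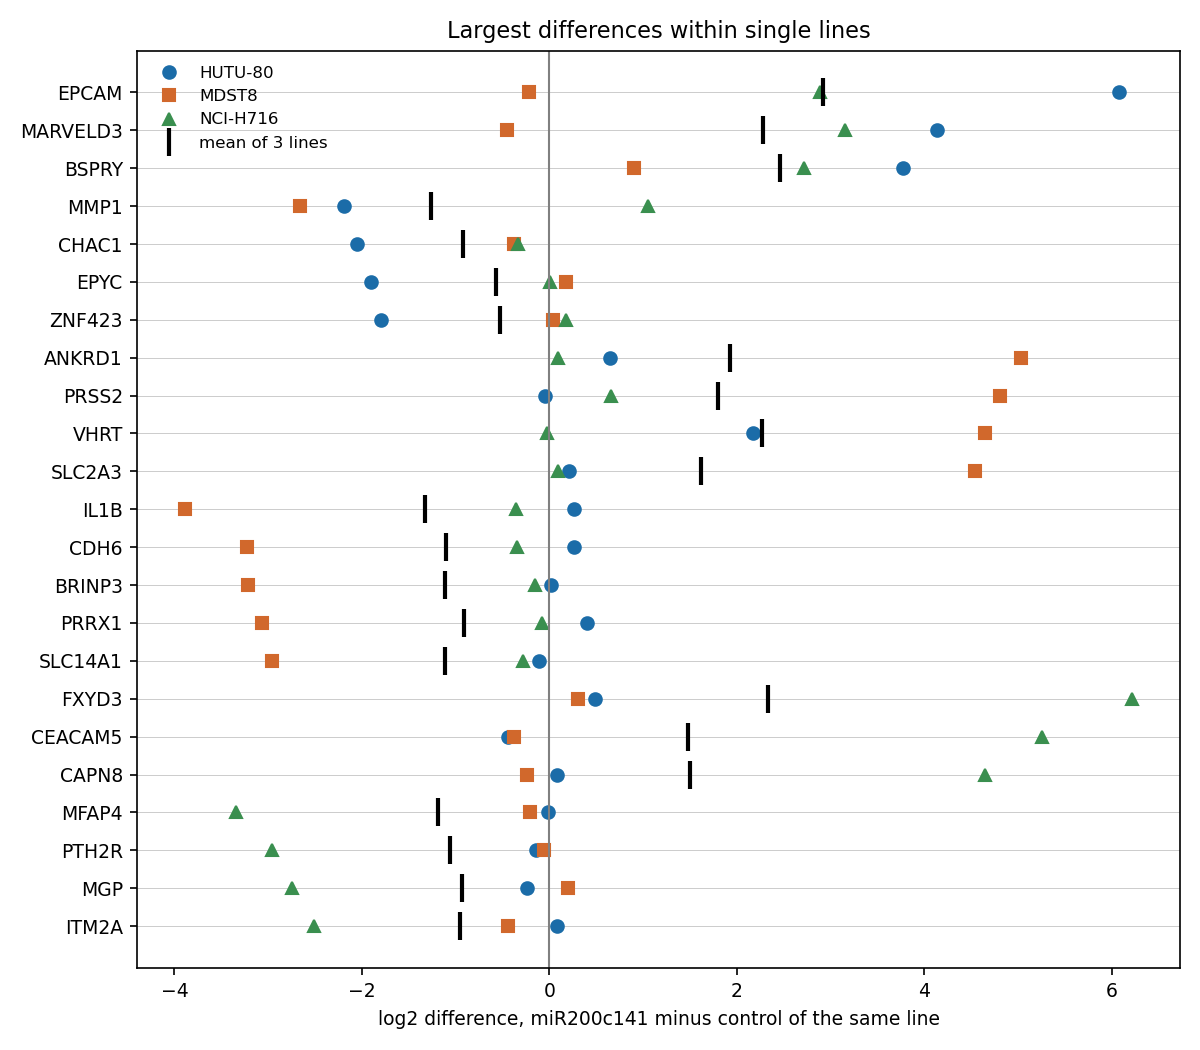
Log2 difference, miR200c141 minus control of the same line, for the genes among the 5 largest in either direction in at least 1 line, leaving out those in the plot of differences shared by all lines. For most genes 1 symbol lies far from 0 and the other lines lie near it. Examples are FXYD3 at 6.22 in NCI-H716 and ANKRD1 at 5.03 in MDST8. EPCAM lies at 6.08 in HUTU-80 and also at 2.89 in NCI-H716. The controls of FXYD3 in NCI-H716, ANKRD1 in MDST8 and EPCAM in HUTU-80 are below background, so those differences are bounds.

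Set beside miR200ba429 in the same lines, no gene passed the paired limma test (smallest adjusted p = 0.254), and 997 had an unadjusted p under 0.05. OSTM1 had the smallest p. Its levels were 7.50, 7.75 and 6.59 with miR200c141 in HUTU-80, MDST8 and NCI-H716, against 8.42, 8.67 and 8.0 with miR200ba429, a difference of -1.08 ± 0.14 (SE, n = 3 lines, limma adjusted p = 0.254). HMOX1, the inducible heme oxygenase, differed by -1.05 ± 0.14 (limma adjusted p = 0.254), and ITPR3, a calcium channel of the endoplasmic reticulum, by 0.75 ± 0.12. CDS1 differed by 1.28 ± 0.20 and TJP3, a tight junction scaffold below background on every array of both clusters, by 0.98 ± 0.18. ZEB1 read 7.96, 7.94 and 8.43 with miR200c141, against 8.75, 9.26 and 8.85 with miR200ba429 in the same lines, a difference of -0.84 ± 0.16. The library labelled MDST8 with miR200ba429 stands apart, as its ZEB1 and VAMP8 levels of 9.26 and 3.14 are near the 9.39 and 2.95 of the MDST8 control. Without MDST8, 7 genes were called between the clusters.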

How the data were processed

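Biotin-labelled RNA was hybridised to Affymetrix U133 Plus arrays read on a GeneTitan instrument, per the labels. The deposited values are log2 intensities of 54715 probe sets, made with RMA per the submitters' processing notes, with version and settings not given in the sources used here. RMA pulls arrays to 1 distribution (medians 3.60 to 3.66), so a shift of all genes cannot be seen. Of the probe sets, 40914 name 1 gene, 864 several and 12835 none, and 40858 of the first kind matched RefSeq. The probe set of highest mean stood for each gene. Groups came from the titles. Depth has no meaning for arrays, and the number of arrays limits the precision.

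limma 3.58.1 in R 4.3.3 was run across 19774 genes with the line as a block, a variance trend and Benjamini-Hochberg adjustment at 0.05, and was tested on simulated data. The block comes from the lines, which each gave both arrays. Genes named are those called, the 12 largest shared differences each way, up to 4 members of largest difference in each list, the 5 largest each way in each line, the 6 of smallest p between clusters, and ZEB1, ZEB2, CDH1, EPCAM, ESRP1 and VIM. Other members that a list's count or a contrast turned on, and genes in the closing observations, were chosen after their values were seen. The genes, lists and comparisons were chosen with earlier results of these data known. Alternatives covered the block, the HUTU-80 arrays, the groups fitted, probe sets, dim genes, a floor, centring, the trend and each line left out.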

Additional observations from a re-analysis of the deposited data

Results flagged for a closer look

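COL1A1, a chain of collagen I, went opposite ways between lines, at 0.5123 in MDST8, 3.5328 in NCI-H716 and -1.3234 in HUTU-80 (log2, miR200c141 minus control). Its NCI-H716 control was below background, and no reliable test of the difference between lines was available. Its second probe set above background gave 0.06, 0.77 and -0.17 in the same order, far smaller in each line. ITGA2, a collagen-binding integrin, differed by 2.133 in HUTU-80 and by -0.7699 in MDST8, also without a reliable test, and its second probe set gave 0.67 and -1.07.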

How the results depend on the processing

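Against 4 genes called with miR200c141 over control, leaving out 1 line gave 1 to 88 calls. The count was 0 with no replicate block, that is without pairing by line, and 0 with all 4 groups in the fit, with values floored at background and without the variance trend, where limma gave 189, 1302, 856 and 1433 genes at an unadjusted p under 0.05. It was 1 with the mean of all probe sets, 2 with either HUTU-80 array alone and 20 when both HUTU-80 arrays entered unaveraged. Over these 14 alternatives VAMP8 was called in 10, ZEB1 in 8 and PRSS23 and GCH1 in 4 each. Without the MDST8 array with miR200ba429, an alternative added after seeing the data, the fit over all 4 groups called 3 genes. Between clusters the count was 0, and 0 to 7 without 1 line. A fit over 7 arrays asking where the response differs between lines called 402 genes, 140 to 219 without 1 line, 105 with the mean of probe sets and 35 without the trend. Its only residual degree of freedom is the HUTU-80 pair, and it gave false calls on simulated data, so it supports no gene here. It could not be run without HUTU-80 or with floored values. Of 170 named genes, 22 turned sign under some alternative, 13 of them with a mean difference of at least 0.3, none of the 13 past the test. Without NCI-H716 ESRP1 came to -0.0695, CEACAM5 to -0.41, CAPN8 to -0.08, COL1A1 to -0.41 and DKK1 to -0.08. Without MDST8 PRRX1 came to 0.16, and without HUTU-80 ITGA2 came to -0.33 and EPYC to 0.09. Of the list medians recomputed, 300 moved by less than their spread and 40 by more. The cause was not tested.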

Other observations

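The following genes were picked after their values were seen and rest on no test of their own. PHGDH, the first enzyme of serine synthesis, differed by -0.66 in HUTU-80 cells, -0.63 in MDST8 and -0.99 in NCI-H716 (limma adjusted p = 0.236), and PSAT1, the next enzyme, by -0.40, -0.38 and -0.69 (limma adjusted p = 0.191). PSPH, the last, differed by -0.35, 0.18 and -0.25. The arginine transporter SLC7A2 differed by -0.74, -0.57 and -0.89 (limma adjusted p = 0.251), and the transporter SLC1A4 by -0.68, 0.41 and 0.14.

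DICER1, which cuts microRNA precursors, differed by 0.45, 0.80 and 0.91 in the same lines (limma adjusted p = 0.197), while DROSHA differed by 0.14, 0.08 and 0.03 and AGO2 by -0.08, -0.22 and -0.23. FADS1, a fatty acid desaturase, differed by -0.82, -0.59 and -0.64 (limma adjusted p = 0.152), and SCD5, another desaturase, by -0.49, -0.47 and -1.52 (limma adjusted p = 0.434). RAB27A, a GTPase of secretory granules, differed by 0.56, 0.40 and 1.75, and RAB3B by 0.47, 0.48 and 1.78. LGALS3, a galectin of epithelia, differed by 0.43, 0.57 and 1.77.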
